A study of Mus musculus with 7 samples.

Results

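Marker genes of pericytes, 10 in number, were followed through 7 RNA-seq libraries of sorted mouse heart cells. They were chosen by name, as the rows Rgs5, Rgs4, Cspg4, Pdgfrb, Kcnj8, Abcc9, Higd1b, Vtn, Mcam and Ndufa4l2 of the deposited count table. All 10 were present among its 54735 gene symbols, and all 10 passed the filter on low counts that left 17636 genes to be tested. Each library came from GFP-positive cells of hearts of pooled males and females. Postn P7 cells (n = 2 libraries, 7 days of age) had the genotype PostnMCM;R26eGFP. Tcf21 P30 cells (n = 3, 30 days) and Tcf21 P7 cells (n = 2, 7 days) both had the genotype Tcf21MCM;R26eGFP. MCM is MerCreMer, a Cre recombinase held inactive until tamoxifen is given, here under the control of the gene of periostin or of Tcf21, and R26eGFP is a reporter that stays on once recombined. GFP therefore records that the driver gene was active when tamoxifen was present, not that the cell still expresses it; when tamoxifen was given is not stated in the labels. All groups carried a driver and the reporter, and no unsorted or GFP-negative cells were analysed here. The labels call the sorted cells fibroblasts, and pericytes were not a sorted population.

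Pericytes are mural cells that sit on capillaries within the basement membrane they share with the endothelium. They are recruited when endothelial cells secrete platelet-derived growth factor B, which binds the receptor encoded by Pdgfrb on the pericyte. In the heart they regulate the tone and permeability of capillaries, and they share many transcripts with smooth muscle cells and some, Pdgfrb among them, with fibroblasts. The 10 genes have different roles. Pdgfrb, Cspg4 (the proteoglycan NG2) and Mcam (the adhesion molecule CD146) encode surface proteins. Rgs5 and Rgs4 encode regulators of G-protein signalling, which speed the shut-off of G-protein alpha subunits. Kcnj8 and Abcc9 encode the pore subunit Kir6.1 and the sulfonylurea receptor SUR2, which together form the ATP-sensitive potassium channel of vascular mural cells. Vtn encodes the adhesive glycoprotein vitronectin. Higd1b and Ndufa4l2 encode small mitochondrial proteins, the second known as a target of hypoxia-inducible factor.

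Among the 10 genes, 2 pairs are neighbours in the genome (GRCm38), all protein coding. Rgs5 (chromosome 1, 169655501 to 169695813) and Rgs4 (169741477 to 169747642) point toward each other across 45663 bases, and Kcnj8 (chromosome 6, 142564837 to 142571614) and Abcc9 (142587862 to 142702315) lie in tandem on the minus strand, 16247 bases apart. No annotated gene lies between the members of either pair. The other genes are Cspg4 (chromosome 9, 56865033 to 56899870), Mcam (chromosome 9, 44134469 to 44142727), Higd1b (chromosome 11, 102835849 to 102838040), Vtn (chromosome 11, 78499091 to 78502324) and Ndufa4l2 (chromosome 10, 127514967 to 127517154). Exons shared with a gene on the opposite strand made up 2.9% of the exon length of Ndufa4l2 (with Shmt2), 1.9% of Abcc9 and 0.5% of Mcam, and 0 bases in the other 7 genes.

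The promoter windows of the 2 neighbouring pairs are given because their members are compared within each library below. Windows of 300 bases, 250 before the annotated start and 50 from it on, were taken from RefSeq (GRCm38.p6), which matched 7 of the 10 genes; Higd1b, Ndufa4l2 and Pdgfrb had no entry. They read 5′ to 3′ on the strand of the gene. Capitals mark matches on either strand to 5 motifs: TATAAA, the TATA box; GGGCGG, the GC box; ACGTG, the core bound by hypoxia-inducible factors; TGGGAA, the core bound by the Notch effector RBPJ; and the CArG box of serum response factor.
Rgs5, chr1:169655251-169655550, plus strand: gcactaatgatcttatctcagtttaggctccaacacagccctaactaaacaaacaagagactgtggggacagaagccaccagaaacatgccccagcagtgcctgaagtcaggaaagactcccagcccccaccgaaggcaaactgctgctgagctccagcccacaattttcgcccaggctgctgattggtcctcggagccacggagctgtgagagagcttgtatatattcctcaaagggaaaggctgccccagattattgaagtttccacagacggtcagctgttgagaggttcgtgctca
Rgs4, chr1:169747593-169747892, minus strand: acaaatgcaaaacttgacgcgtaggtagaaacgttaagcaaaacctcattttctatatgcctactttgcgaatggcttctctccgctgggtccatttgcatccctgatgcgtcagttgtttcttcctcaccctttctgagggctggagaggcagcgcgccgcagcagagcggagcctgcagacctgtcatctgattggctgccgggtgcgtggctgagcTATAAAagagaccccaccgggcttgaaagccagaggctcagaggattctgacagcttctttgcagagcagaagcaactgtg
Kcnj8, chr6:142571565-142571864, minus strand: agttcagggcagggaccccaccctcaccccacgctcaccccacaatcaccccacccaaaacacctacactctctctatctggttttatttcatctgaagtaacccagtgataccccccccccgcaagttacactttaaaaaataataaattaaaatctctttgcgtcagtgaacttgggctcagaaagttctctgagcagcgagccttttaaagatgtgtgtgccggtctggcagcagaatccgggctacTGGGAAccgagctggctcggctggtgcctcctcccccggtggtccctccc
Abcc9, chr6:142702225-142702524, minus strand: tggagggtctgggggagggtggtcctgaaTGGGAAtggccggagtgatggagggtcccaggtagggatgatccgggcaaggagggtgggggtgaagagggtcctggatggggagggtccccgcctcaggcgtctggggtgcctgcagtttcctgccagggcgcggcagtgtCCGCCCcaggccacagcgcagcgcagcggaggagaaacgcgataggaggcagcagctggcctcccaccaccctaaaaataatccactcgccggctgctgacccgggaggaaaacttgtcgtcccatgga
The Rgs5 window held no match to any of the 5 motifs. The Rgs4 window held a TATAAA that began 31 bases before the start, a motif found in 13.6% of all 32851 windows. TGGGAA occurred at the start base of Kcnj8 and 221 bases before the start of Abcc9, against 25.6% of all windows, and the Abcc9 window also held GGGCGG on the opposite strand (35.7% of all windows). No window of the 7 genes held ACGTG or a CArG box, which 19.6% and 1.6% of all windows held. These matches describe the letters of the windows and were not tested against the expression values.

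Library depth was 15207835 to 18519528 counts, and the 10 genes took up 0.215% and 0.161% of the counts in Postn P7, 0.0860% to 0.160% in Tcf21 P30 and 0.0952% and 0.0892% in Tcf21 P7. No member was at 0 in any library, and the lowest count was 31, for Higd1b in Tcf21 P30 replicate 2. Beside the label of fibroblasts, 14 fibroblast genes were read, among them Col1a1, Dcn, Pdgfra and Tcf21. They summed to 44120 and 53980 normalised CPM in Postn P7, 43600 to 54960 in Tcf21 P30 and 60580 and 60730 in Tcf21 P7. None was at 0 in any library. The same held for the endothelial, smooth muscle, macrophage and cardiomyocyte lists below, so presence alone does not tell these cell types apart. One library stood apart. Tcf21 P30 replicate 1 held 6544 normalised CPM of 16 endothelial genes (none at 0 in any library), against 1741 and 2124 in the other Tcf21 P30 libraries, 2675 and 1614 in Postn P7 and 1881 and 1694 in Tcf21 P7. Its sum of the 10 pericyte genes was 1610 normalised CPM, against 893 and 921 in the other 2 libraries of its group, so the tests of the 10 genes and the counts of the gene lists are given with and without it, the likeness of profiles only over all 7 libraries. The library was thus set apart partly by the levels of the tested genes themselves. The p-values without it lean toward calls and describe only the remaining libraries. In bulk libraries, more cells of a type and more RNA per cell cannot be told apart.

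Levels are normalised CPM, counts scaled to the library total after correction by TMM factors of edgeR, and are given per library in replicate order. A gene is called higher or lower where its p-value, from the quasi-likelihood F-test of edgeR with Benjamini-Hochberg adjustment over all 17636 genes, was under 0.05. All adjusted p-values below are from that test. Where libraries were left out or summed, the model was fitted again and the adjustment ran over the genes tested in that fit. These were 17395 genes without Tcf21 P30 replicate 1 and 18146 without both endothelial-rich libraries. Differences are on the log2 scale with their standard error.

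Pdgfrb, the receptor gene (chromosome 18, 61045150 to 61085061, protein coding), was the most abundant member and the only 1 of the 10 to be called with all libraries. Its level was 651 and 633 normalised CPM in Postn P7, 587.5, 602.5 and 564 in Tcf21 P30, and 431.5 and 409.5 in Tcf21 P7. The Tcf21 P7 libraries lay below all 5 others, and replicates lay close together in each group. Pdgfrb was higher in Postn P7 than in Tcf21 P7 by 0.61 ± 0.09 (1.53-fold, adjusted p = 0.011) and higher in Tcf21 P30 than in Tcf21 P7 by 0.48 ± 0.09 (1.39-fold, adjusted p = 0.0050). Between Postn P7 and Tcf21 P30 the difference was 0.13 ± 0.09 (adjusted p = 0.30). Its level in Tcf21 P30 replicate 1 was 1.01 times the mean of the other 2 libraries of that group, although the endothelial genes stood apart there. Both calls rested on the pair of Tcf21 P7 libraries. With replicate 1 or 2 of that group left out, Pdgfrb had adjusted p-values of 0.12 and 0.14 for Postn P7 against Tcf21 P7 and of 0.070 and 0.10 for Tcf21 P30 against Tcf21 P7, with differences of 0.45 to 0.66.

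Rgs5, the regulator of G-protein signalling most used to mark pericytes, varied widely within Postn P7 and within Tcf21 P30. It was measured at 358 and 197 normalised CPM in Postn P7, at 328, 42.2 and 75.9 in Tcf21 P30, and at 105 and 104 in Tcf21 P7. Both Postn P7 libraries lay above both Tcf21 P7 libraries, while the Tcf21 P30 libraries lay on both sides of the Tcf21 P7 level. Neither the difference of 1.41 ± 1.01 between Postn P7 and Tcf21 P7 (adjusted p = 0.41) nor that of 0.51 ± 0.92 between Tcf21 P30 and Tcf21 P7 (adjusted p = 0.71) was called. Its neighbour Rgs4, which encodes a related regulator, stood at 47.0 and 58.6 normalised CPM in Postn P7, at 81.5, 18.01 and 25.6 in Tcf21 P30, and at 18.2 and 15.5 in Tcf21 P7. The Postn P7 libraries were again above those of Tcf21 P7, by 1.65 ± 0.76 (3.13-fold, adjusted p = 0.22), but here replicate 2 of Postn P7 was the higher one. Tcf21 P30 replicate 1 held more of both genes than any Tcf21 P7 library.

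**Figure D1:**
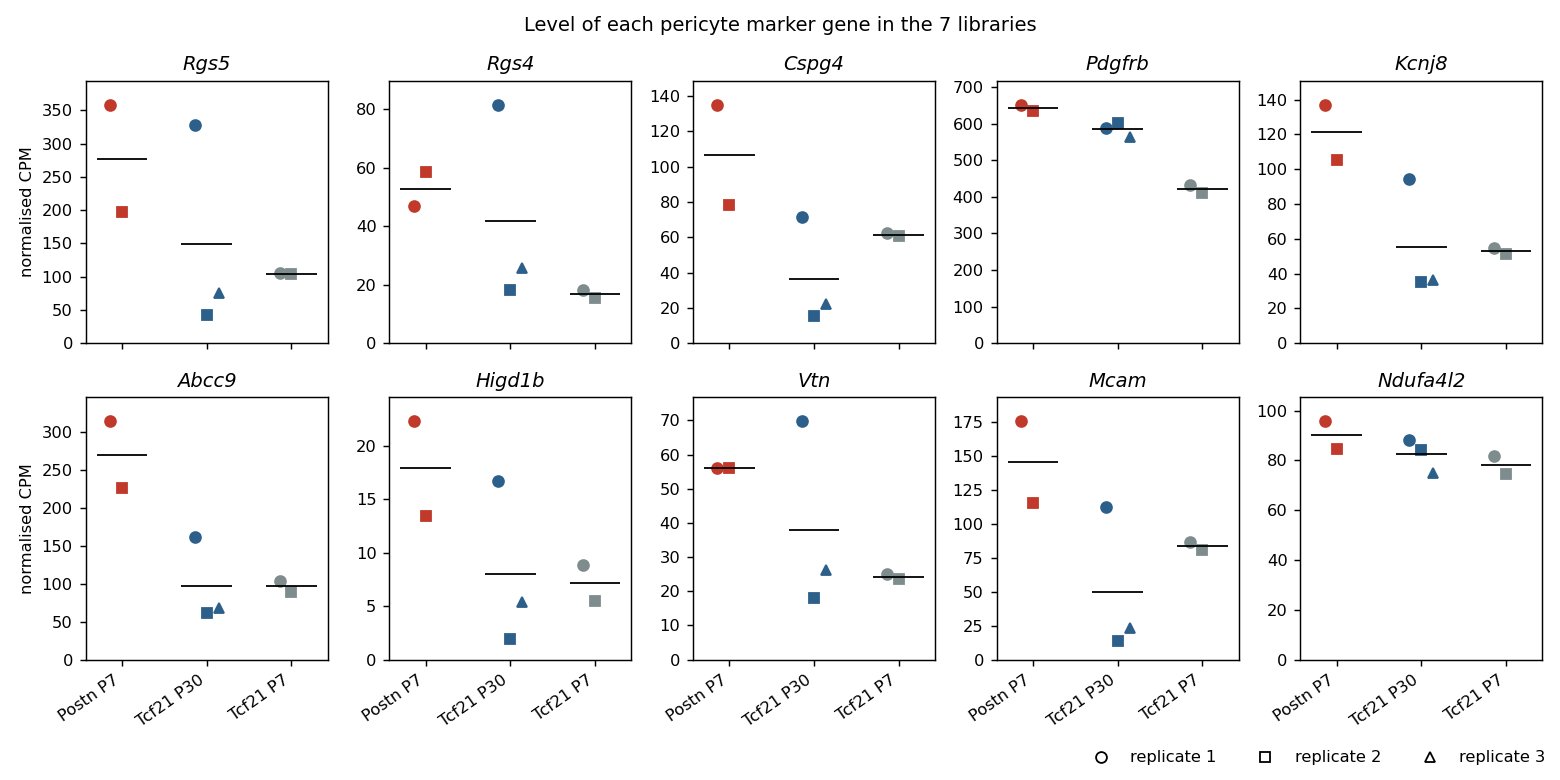
Level of each gene in normalised CPM (vertical axis, from 0) in Postn P7, Tcf21 P30 and Tcf21 P7; each point is 1 library, its shape gives the replicate number, and the line is the group mean. Tcf21 P30 replicate 1 (dark blue circle) lies above the other Tcf21 P30 libraries in every panel but that of Pdgfrb, where it lies between them.

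The channel genes were higher in both Postn P7 libraries than anywhere else, without passing the test. Kcnj8, the pore subunit, was measured at 137 and 105.5 normalised CPM in Postn P7, 94.4, 35.3 and 36.3 in Tcf21 P30 and 54.6 and 51.4 in Tcf21 P7. Abcc9, the sulfonylurea receptor, was measured at 313 and 226 normalised CPM in Postn P7, 161, 60.8 and 67.3 in Tcf21 P30 and 103.5 and 89.0 in Tcf21 P7. For both genes each Postn P7 library was above every library of the other groups. The differences from Tcf21 P7 were 1.19 ± 0.53 for Kcnj8 (adjusted p = 0.21) and 1.49 ± 0.53 for Abcc9 (adjusted p = 0.13), and those from Tcf21 P30 were 1.13 ± 0.47 (adjusted p = 0.16) and 1.49 ± 0.46 (adjusted p = 0.077). Per kilobase of exon, Kcnj8 was 1.44 and 1.54 times Abcc9 in Postn P7, 1.93, 1.91 and 1.77 times in Tcf21 P30 and 1.73 and 1.90 times in Tcf21 P7. The ratio thus stayed within 1.44 to 1.93 while the level of Abcc9 ranged from 60.8 to 313 normalised CPM. The other pair of subunits, Kcnj11 and Abcc8, which form the channel of pancreatic beta cells, averaged at most 1.20 and 1.89 normalised CPM in any group.

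The surface proteins other than Pdgfrb were lowest in the day 30 libraries that did not stand apart. Cspg4 was measured at 135 and 78.3 normalised CPM in Postn P7, at 71.25, 15.5 and 21.9 in Tcf21 P30 and at 62.6 and 60.6 in Tcf21 P7. Mcam was measured at 175.5 and 115 normalised CPM in Postn P7, at 112, 14.01 and 23.3 in Tcf21 P30 and at 86.4 and 80.6 in Tcf21 P7. Replicates 2 and 3 of Tcf21 P30 lay below every P7 library for both genes, and replicate 1 lay above the Tcf21 P7 libraries. With all libraries the differences between Tcf21 P30 and Tcf21 P7 were -0.77 ± 0.70 for Cspg4 (adjusted p = 0.45) and -0.75 ± 0.90 for Mcam (adjusted p = 0.57). Between Postn P7 and Tcf21 P7 they were 0.79 ± 0.77 (adjusted p = 0.54) and 0.80 ± 0.99 (adjusted p = 0.64), and without Postn P7 replicate 1 they were 0.34 and 0.46. Vtn, the secreted member, was measured at 56.2 and 56.1 normalised CPM in Postn P7, 69.7, 18.1 and 26.3 in Tcf21 P30 and 25.1 and 23.5 in Tcf21 P7. Its Postn P7 replicates were nearly equal, and the difference from Tcf21 P7 of 1.21 ± 0.65 was not called (adjusted p = 0.28).

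The mitochondrial members behaved differently from each other. Higd1b, the least abundant gene, was measured at 22.3 and 13.45 normalised CPM in Postn P7, 16.7, 1.97 and 5.38 in Tcf21 P30 and 8.81 and 5.48 in Tcf21 P7, a difference of 1.32 ± 0.94 between the P7 groups (adjusted p = 0.41). Ndufa4l2 was nearly level, at 95.7 and 84.4 normalised CPM in Postn P7, 88.2, 84.2 and 74.9 in Tcf21 P30 and 81.7 and 74.4 in Tcf21 P7. Its largest difference was 0.21 ± 0.12, between Postn P7 and Tcf21 P7 (adjusted p = 0.27), and Tcf21 P30 replicate 1 held 1.11 times the mean of the other libraries of its group. Ndufa4, the gene of the respiratory chain subunit that Ndufa4l2 resembles, was lower in Postn P7 than in Tcf21 P7 (-0.61 ± 0.13, adjusted p = 0.025). Per kilobase, Ndufa4l2 was 1.497 and 1.53 times Ndufa4 in Postn P7, 1.09, 1.32 and 1.03 times in Tcf21 P30 and 0.907 and 0.810 times in Tcf21 P7.

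Per kilobase of exon, so that genes can be set against each other, Pdgfrb (76.8 ± 2.84 normalised CPM per kilobase, SD, n = 2) and Ndufa4l2 (71.3 ± 4.71) led in Tcf21 P7. Mcam (24.9 ± 1.23), Rgs5 (23.0 ± 0.0733) and Kcnj8 (20.8 ± 0.889) followed in Tcf21 P7, and the libraries of these 3 genes did not overlap. Vtn (11.96 ± 0.550) and Abcc9 (11.5 ± 1.23) were not separated beyond their spread, nor were Rgs4 (5.44 ± 0.608) and Cspg4 (5.16 ± 0.118), which came last after Higd1b (8.44 ± 2.78). In Postn P7 the order began with Pdgfrb (117 ± 2.32 normalised CPM per kilobase, SD, n = 2), Ndufa4l2 (82.2 ± 7.26) and Rgs5 (61.0 ± 25.2). Pdgfra, the related receptor gene of fibroblasts, averaged 73.6 ± 11 normalised CPM per kilobase in Postn P7 (SD, n = 2), 120 ± 13.2 (SD, n = 3) in Tcf21 P30 and 85.3 ± 0.255 (SD, n = 2) in Tcf21 P7. The mean of Pdgfrb per kilobase thus stood above that of Pdgfra in Postn P7 and below it in both Tcf21 groups, with overlap between the genes' libraries in Tcf21 P30. This order depends on the lengths used, which join all annotated exons of a gene (5478 bases for Pdgfrb, 10024 for Pdgfra). Before division by length, Pdgfra was the higher in Postn P7, at 660 and 816 normalised CPM against 651 and 633 for Pdgfrb.

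As a list against Tcf21 P7, 1 of the 10 genes was higher in Postn P7 and none lower, where 6.52% of all genes were called higher and 5.49% lower. The median difference of the 10 was 1.20, against 0.00 over all genes tested. Every Postn P7 library was above every Tcf21 P7 library for all 10 genes, a pattern that 31.4% of all genes showed in that direction. The 9 genes that were not called had standard errors of 0.12 for Ndufa4l2 and of 0.53 to 1.01 for the other 8. In the comparison of ages 1 of the 10 genes was higher in Tcf21 P30 than in Tcf21 P7 and none lower, where 16.7% of all genes were called higher and 15% lower, and the median difference was 0.12 against 0.03 over all genes. Between Postn P7 and Tcf21 P30, where lineage and age differ together, none of the 10 was called by edgeR, where 11.7% of all genes were called higher and 12.5% lower. There 1 had an unadjusted p under 0.05 (36.3% of all genes), DESeq2 called 1 (24.3% of all genes) and limma-voom 3 (24.8%), each with a positive difference, and the median was 1.02 against -0.01. Pdgfrb was the 1 gene of the 10 with every Tcf21 P30 library above every Tcf21 P7 library (31.8% of all genes), and 5 of the 10 had both Postn P7 libraries above all of Tcf21 P30 (24.7%): Cspg4, Pdgfrb, Kcnj8, Abcc9 and Mcam. The comparisons share libraries in pairs, so their values are not independent of each other.

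Most of these outcomes depended on Tcf21 P30 replicate 1. Of the 10 genes, 10 were higher in it than the mean of the other 2 libraries of its group, by 1.01 times for Pdgfrb to 6.01 times for Mcam, with a median of 3.44. Without it, 5 of the 10 were higher in Postn P7 than in Tcf21 P7 and none was lower, where 10.4% of all genes were called higher and 8.27% lower. These were Abcc9 (1.5 ± 0.16, adjusted p = 0.0019), Kcnj8 (1.21 ± 0.13, adjusted p = 0.0016), Rgs4 (1.66 ± 0.19, adjusted p = 0.0021), Vtn (1.22 ± 0.17, adjusted p = 0.0034) and Pdgfrb (0.62 ± 0.09, adjusted p = 0.0041). That library belongs to neither group of this comparison, and the differences themselves hardly moved when it was left out. What changed was the spread that all groups share in the fit, as the standard error of Rgs5 shows, which was 0.38 without the library and 1.01 with it. Rgs5 itself had an adjusted p of 0.059.

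Against Tcf21 P7, the 2 remaining Tcf21 P30 libraries were lower for 4 of the 10 genes and higher for 1, where 16.9% of all genes were called lower and 17.9% higher. Mcam fell to 18.7 ± 6.57 normalised CPM (SD, n = 2) in these libraries, against 83.5 ± 4.12 in Tcf21 P7 (-2.15 ± 0.30, adjusted p = 0.0032). Cspg4 fell to 18.7 ± 4.52 normalised CPM, against 61.6 ± 1.40 in Tcf21 P7 (-1.71 ± 0.29, adjusted p = 0.0067). Kcnj8 (-0.56 ± 0.14, adjusted p = 0.013) and Abcc9 (-0.58 ± 0.16, adjusted p = 0.027) were lower by similar amounts. Rgs5 (-0.82 ± 0.38), Higd1b (-0.94 ± 0.50), Vtn (-0.12 ± 0.17), Rgs4 (0.38 ± 0.19) and Ndufa4l2 (0.03 ± 0.11) were not called, and Pdgfrb was higher by 0.48 ± 0.09. The signs of Rgs5, Kcnj8, Higd1b and Vtn were opposite to those with all libraries.

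Postn P7 was higher than the 2 remaining Tcf21 P30 libraries for 8 of the 10 genes and lower for none, where 15.3% of all genes were called higher and 13.9% lower. The differences of these 8 ran from 1.28 ± 0.19 for Rgs4 to 2.96 ± 0.30 for Mcam, with Cspg4 at 2.52 ± 0.30 and Rgs5 at 2.24 ± 0.39. Pdgfrb (0.14 ± 0.09) and Ndufa4l2 (0.19 ± 0.11) were not called. The library left out was known to stand apart from earlier results of these data, and whether it or the other 2 libraries represent day 30 hearts better cannot be told from 3 libraries. Its levels of the tested genes were part of that choice, so the calls without it are not independent of the choice.

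**Figure D2:**
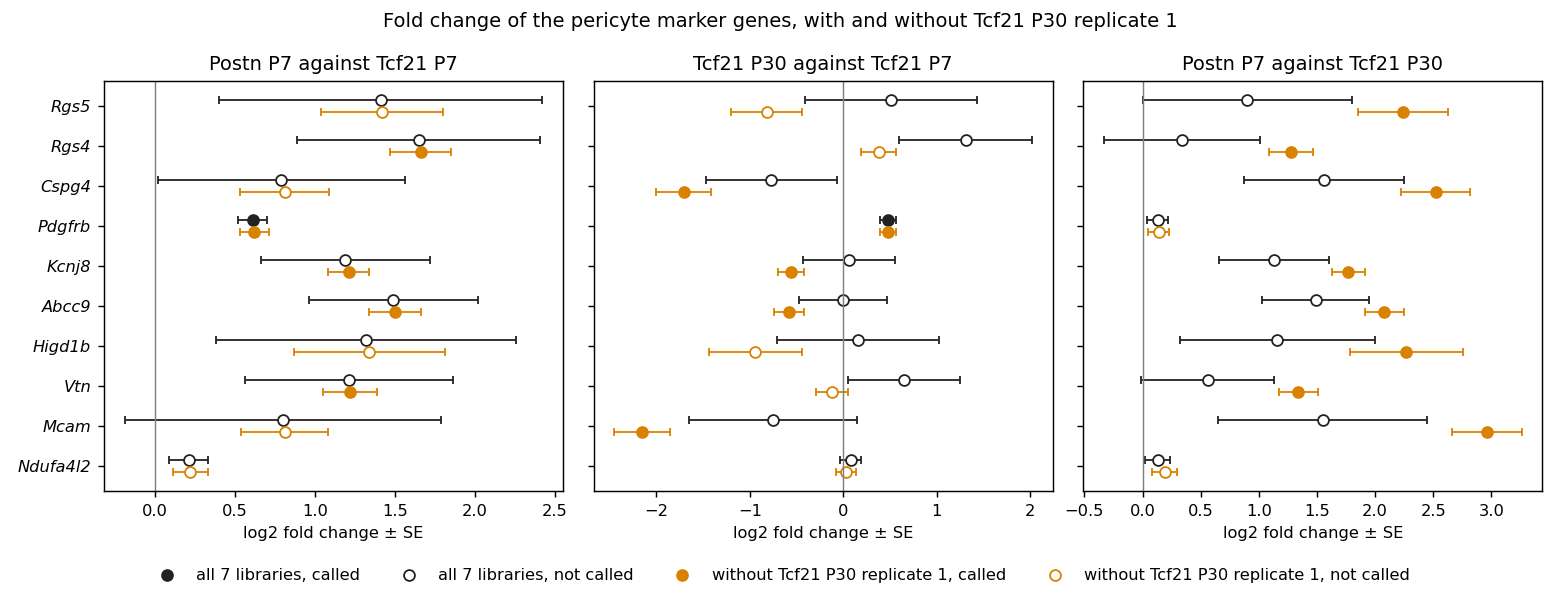
Log2 fold change with its standard error (horizontal axis) of each gene in 3 comparisons, with all 7 libraries (black) and without Tcf21 P30 replicate 1 (orange); filled points were called and open points were not. Without that library the points for Postn P7 against Tcf21 P7 keep their place and most bars shorten, while Mcam and Cspg4 in Tcf21 P30 against Tcf21 P7 move to -2.15 and -1.71.

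Transcripts of other cell types moved with these results in part. Over the 9 pericyte genes other than Pdgfrb, the summed level was 1340 and 934 normalised CPM in Postn P7, 1023, 290 and 357 in Tcf21 P30 and 546 and 505 in Tcf21 P7. The endothelial sum was highest in Tcf21 P30 replicate 1 and next in Postn P7 replicate 1, which also had the highest pericyte sums of their groups. Postn P7 replicate 2 had an endothelial sum of 1614 and a pericyte sum of 934, against endothelial sums of 1881 and 1694 and pericyte sums of 546 and 505 in Tcf21 P7. Single endothelial genes went both ways in that library. Kdr was at 145 normalised CPM, against 141 and 110 in Tcf21 P7, and Cldn5 at 21.1, against 44.6 and 38.8. Tek was at 407, against 450.5 and 432, but it hardly followed the endothelial sum. In Tcf21 P30 replicate 1 Tek was at 540, against 496 and 486 in its group, where Kdr was at 887, against 128 and 165. Between Postn P7 and Tcf21 P7, 11 of the 16 endothelial genes had a positive difference and edgeR called none, with a median of 0.34 against 0.00 over all genes. Without both endothelial-rich libraries, which leaves 1 Postn P7 library that is assumed to vary like the others, 5 of the 10 genes were higher in Postn P7 than in Tcf21 P7 and none was lower, where 10.9% of all genes were called higher and 9.74% lower. For Tcf21 P30 against Tcf21 P7, 1 was then higher and 4 lower (20.7% and 19.8% of all genes), and for Postn P7 against Tcf21 P30 8 were higher and none lower (14.1% and 12.8%). Between the P7 groups, leaving out both put Abcc9 at 1.23 ± 0.11 and Rgs4 at 1.8 ± 0.20, and Rgs5 at 0.91 ± 0.37 (adjusted p = 0.20). The sum of 15 smooth muscle genes was 1872 and 1716 normalised CPM in Postn P7, 1827, 1106 and 1097 in Tcf21 P30 and 1560 and 1579 in Tcf21 P7, with none at 0 in any library. Of these genes Synpo2 (0.94 ± 0.25) and Cald1 (0.41 ± 0.11, adjusted p = 0.046) were higher in Postn P7 than in Tcf21 P7 and none was lower (6.52% and 5.49% of all genes). The median of the 15 was 0.29, against 0.00 over all genes. In Tcf21 P30 the smooth muscle genes Actg2 (-1.46 ± 0.32), Itga8 (-1.13 ± 0.10) and Ntrk3 (-0.92 ± 0.22) were lower than in Tcf21 P7, and Synpo2 (1.33 ± 0.24) and Cald1 (0.33 ± 0.10) were higher. These were 3 and 2 of the 15 (15% and 16.7% of all genes), with a median of -0.28 over the 15. Without Tcf21 P30 replicate 1, 11 of the 15 were lower and 2 higher in that comparison, and 10 were higher and none lower in Postn P7 than in Tcf21 P30 (all genes in that fit: 16.9% lower and 17.9% higher, then 15.3% higher and 13.9% lower). The 12 macrophage genes summed to 287 and 354 normalised CPM in Postn P7, 272 to 426 in Tcf21 P30 and 1063 and 1059 in Tcf21 P7. Summed levels of the other marker lists were 641 to 1490 normalised CPM for 10 cardiomyocyte genes, 68.0 to 620 for 6 erythroid genes, 30.6 to 128 for 8 epicardial genes and 14.2 to 61.4 for 8 glial genes over the 7 libraries. Among these lists Upk3b, Msln, Upk1b, Krt8 and Lrrn4 (epicardial) and Gfap and Kcna1 (glial) were at 0 in at least 1 library. The part of these cells in the pericyte values was not tested beyond the libraries left out above.

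**Figure D3:**
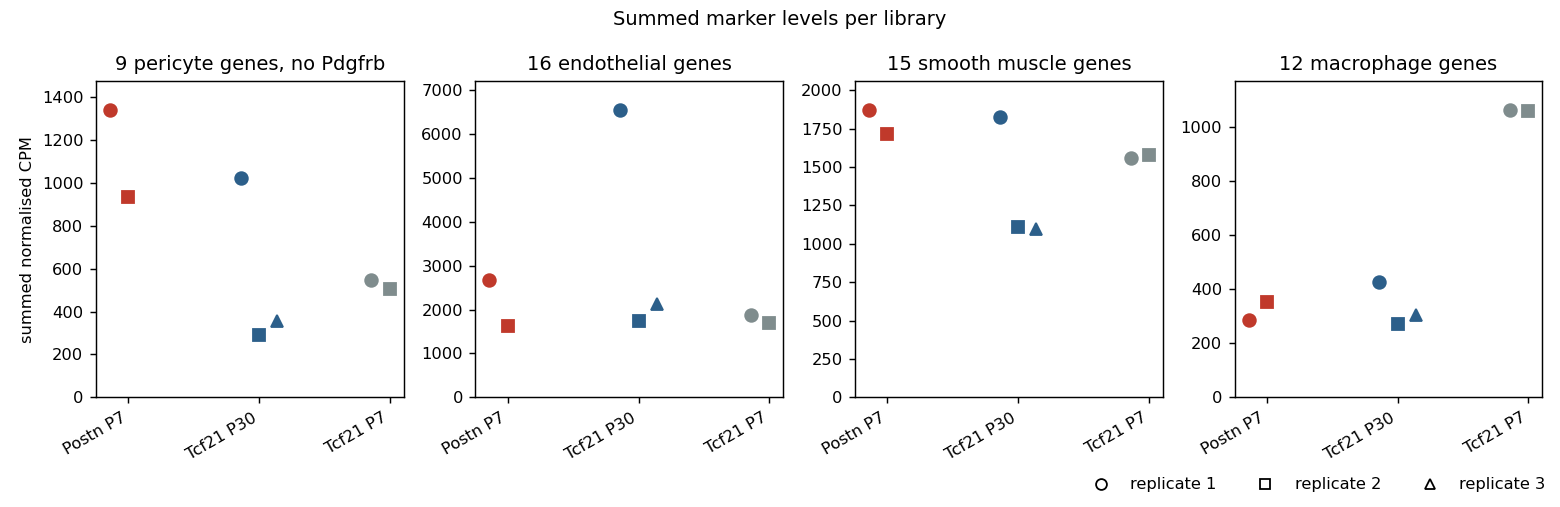
Summed level in normalised CPM (vertical axes, from 0) of the 9 pericyte genes other than Pdgfrb and of 3 other marker lists, by group; each point is 1 library and its shape gives the replicate number. Tcf21 P30 replicate 1 has the highest endothelial sum, 6544, and Postn P7 replicate 2 has the lowest, 1614, with a pericyte sum of 934. Single endothelial genes went both ways between Postn P7 replicate 2 and Tcf21 P7.

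Ratios between members within a library cancel any factor common to both genes, and they were taken after the values had been seen. Relative to Rgs5, per kilobase, Mcam stood at 0.665 and 0.795 in Postn P7, at 0.464, 0.451 and 0.416 in Tcf21 P30 and at 1.12 and 1.05 in Tcf21 P7. The 3 Tcf21 P30 libraries lay together although their Rgs5 levels ranged from 42.2 to 328 normalised CPM, and the 3 groups did not overlap. Cspg4 relative to Rgs5 was 0.144 and 0.152 in Postn P7, 0.0827, 0.1404 and 0.110 in Tcf21 P30 and 0.227 and 0.221 in Tcf21 P7, again without overlap. A ratio to Rgs5 that was lower in every Tcf21 P30 than in every Tcf21 P7 library was seen in 6.85% of the other genes tested, and Mcam and Cspg4 were the 2 of 9 members that had it. They were also the 2 whose ratio was above all of Tcf21 P30 in both Postn P7 libraries, as for 1.31% of genes. Below Tcf21 P7 in both Postn P7 libraries were the ratios of 4 of the 9, these 2 with Pdgfrb and Ndufa4l2, as for 83.7% of genes. Rgs4 relative to Rgs5 went the other way, at 0.364, 0.627 and 0.495 in Tcf21 P30 against 0.254 and 0.218 in Tcf21 P7 (higher without overlap in 6.87% of genes), while Postn P7 replicates differed at 0.192 and 0.438. The ratios of Kcnj8, Abcc9, Higd1b, Vtn, Pdgfrb and Ndufa4l2 to Rgs5 overlapped between the ages. In replicates 2 and 3 of Tcf21 P30 alone, those of Vtn (0.960 and 0.775), Pdgfrb (11.9 and 6.17) and Ndufa4l2 (8.29 and 4.09) lay above Tcf21 P7 (0.535 and 0.504, 3.42 and 3.25, 3.23 and 2.96). Rgs5 itself was lower in these 2 libraries (42.2 and 75.9 normalised CPM) than in Tcf21 P7 (105 and 104). A gene of unchanged level would therefore have such a ratio too, and the share of all genes was not taken for these libraries. Mcam relative to Cspg4 ranged from 3.21 to 5.61 over the 7 libraries, with both ends in Tcf21 P30.

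**Figure D4:**
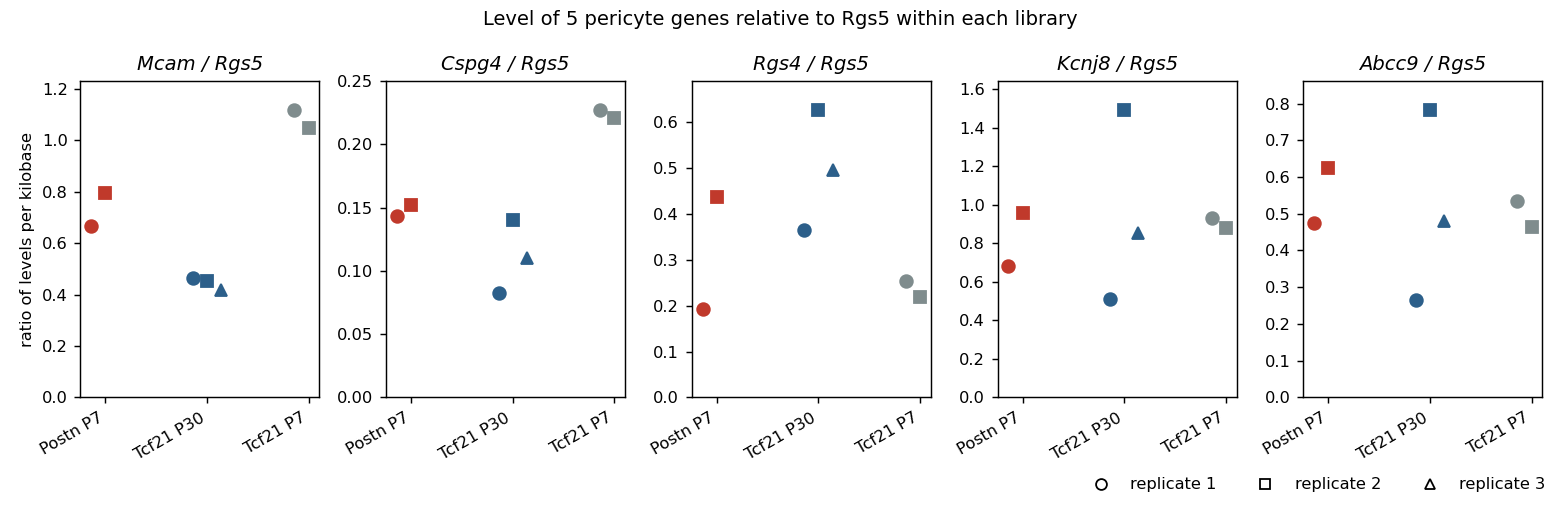
Ratio of the level per kilobase of 5 genes to that of Rgs5 in the same library (vertical axes, from 0), by group; each point is 1 library and its shape gives the replicate number. The Mcam ratio is 0.416 to 0.464 in the 3 Tcf21 P30 libraries, below 1.05 and 1.12 in Tcf21 P7, while the Kcnj8 and Abcc9 ratios overlap.

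The genes whose centred log2 profile over the 7 libraries lay nearest to that of a member were found among 11197 genes with at least 5 normalised CPM, by the root mean square distance. For Rgs5 they were Ano1, Olfr558 and Gprc5c, at 0.220, 0.225 and 0.266, where the profile of Rgs5 itself deviated by 1.05 from its mean. The nearest to Abcc9 was its neighbour Kcnj8 (0.154), and Shroom2 (0.224) was also near, while Kcnj8 had Rasgrp2 (0.138) and Abcc9 (0.154). Mcam and Cspg4 lay near each other (0.258), Higd1b lay near Gprc5c (0.195) and Rgs5 (0.271), and Rgs4 lay near Gcnt2 (0.172), Fam181b (0.199) and Art3 (0.273). Vtn had Dgkh (0.184), Arhgap26 (0.195) and P2ry14 (0.224). Pdgfrb and Ndufa4l2 varied little, by 0.248 and 0.118 from their means, and their nearest genes, Ercc5 and Nars2, lay at 0.047 and 0.048.

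A list of 22 further genes of mural cells was examined beside the 10. Its sum was 2938 and 2737 normalised CPM in Postn P7, 2281 to 2301 in Tcf21 P30 and 2342 and 2257 in Tcf21 P7, with Tcf21 P30 replicate 1, at 2297, level with the other libraries of its group. Against Tcf21 P7, 5 of the 22 were higher in Postn P7 and 1 lower (6.52% and 5.49% of all genes), with a median of 0.62 against 0.00 over all genes. Enpep, a membrane aminopeptidase that cleaves angiotensin II, had the largest difference (2.41 ± 0.10, adjusted p = 7.6e-05). Ednra, the endothelin A receptor gene (0.97 ± 0.13, adjusted p = 0.0065), and Gucy1a1 and Gucy1b1, which encode the subunits of the nitric oxide receptor guanylate cyclase (0.88 ± 0.14 and 0.70 ± 0.10), were higher as well. Heyl, a Notch target, was the fifth (0.49 ± 0.13), and Cd248, endosialin, was lower (-0.69 ± 0.18); both were named after their values were seen.

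Ednra and the cyclase genes were lower at day 30. Ednra averaged 31.6 ± 3.94 normalised CPM in Tcf21 P30 (SD, n = 3), against 65.7 ± 3.87 in Tcf21 P7 (SD, n = 2; -1.06 ± 0.12, adjusted p = 4.7e-04). Gucy1b1 averaged 59.2 ± 4.67 normalised CPM in Tcf21 P30, against 115 ± 0.227 in Tcf21 P7 (-0.95 ± 0.09, adjusted p = 2.4e-04). Altogether 6 of the 22 genes were lower in Tcf21 P30 than in Tcf21 P7 and 2 higher (15% and 16.7% of all genes), the higher ones being Enpep (1.53 ± 0.09) and Heyl, with a median of -0.05. Of the called genes, the largest decreases were Tbx18, a transcription factor of mural and epicardial cells (-1.26 ± 0.25), and Pde5a, which degrades cyclic GMP (-1.09 ± 0.19); Notch3 stood at -1.44 ± 0.43 (adjusted p = 0.053). Between Postn P7 and Tcf21 P30, 9 of the 22 were higher and 1 lower (11.7% and 12.5% of all genes), among them Ednra (2.02 ± 0.12), Colec11 (1.96 ± 0.46), Notch3, the Notch receptor of mural cells (1.77 ± 0.43), and Gucy1b1 (1.65 ± 0.09). Without Tcf21 P30 replicate 1 the counts were 12 higher and 2 lower for Postn P7 against Tcf21 P7 (10.4% and 8.27% of all genes), 3 higher and 9 lower for Tcf21 P30 against Tcf21 P7 (17.9% and 16.9%), and 15 higher and 2 lower for Postn P7 against Tcf21 P30 (15.3% and 13.9%).

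Genes of pericyte recruitment came next. Pdgfb, the endothelial ligand of the Pdgfrb receptor, averaged 10.4 ± 3.30 normalised CPM in Postn P7 (SD, n = 2), 17.0 ± 20.6 in Tcf21 P30 (SD, n = 3) and 8.97 ± 3.30 in Tcf21 P7, and was called in none of the comparisons with all libraries. Of 18 recruitment genes 1 was higher in Postn P7 than in Tcf21 P7 and none was lower (6.52% and 5.49% of all genes), with a median of 0.23 against 0.00 over all genes. It was Angpt1, which encodes angiopoietin 1, the ligand of the endothelial receptor Tek (0.56 ± 0.14, adjusted p = 0.043). In that comparison limma-voom called 0 of the 18 and DESeq2 2, with 2 at an unadjusted p under 0.05. Angpt1 was also higher in Tcf21 P30 than in Tcf21 P7 (0.98 ± 0.13, adjusted p = 0.0013), as were Pdgfra (0.50 ± 0.13) and the sphingosine phosphate receptor gene S1pr3 (0.46 ± 0.09, named after its value was seen). Cdh2, the N-cadherin gene (-1.98 ± 0.12), and the Notch ligand gene Jag1 (-0.98 ± 0.27) were lower at day 30. Between the ages 3 of the 18 were thus higher and 2 lower, where 16.7% of all genes were called higher and 15% lower. Against Tcf21 P30, Postn P7 was higher for 2 of the 18, Cdh2 (2.15 ± 0.12) and Jag1 (0.97 ± 0.27). It was lower for 5, Pdgfra (-0.71 ± 0.14), Angpt1 (-0.43 ± 0.13), Tek (-0.42 ± 0.10), Foxc1 (-0.40 ± 0.12) and S1pr3 (-0.33 ± 0.09). Over all genes 11.7% were called higher and 12.5% lower, and the median of the 18 was -0.41 against -0.01 over all genes. Leaving out Tcf21 P30 replicate 1 gave 2 higher and none lower for Postn P7 against Tcf21 P7, 6 higher and 3 lower for Tcf21 P30 against Tcf21 P7, and 6 higher, Pdgfb among them, and 5 lower for Postn P7 against Tcf21 P30, beside the same shares of all genes as for the mural list.

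Relatives and partners of the members were called less evenly. Of all genes, edgeR called 6.52% higher and 5.49% lower in Postn P7 against Tcf21 P7 with all libraries. The shares were 16.7% and 15% in Tcf21 P30 against Tcf21 P7, and 11.7% and 12.5% in Postn P7 against Tcf21 P30. Without Tcf21 P30 replicate 1 they were, in the same order, 10.4% and 8.27%, 17.9% and 16.9%, and 15.3% and 13.9%. Of 9 genes related to the regulators and to the channel, 7 were tested and edgeR called 0 in each comparison. At an unadjusted p under 0.05 there were 0 in both comparisons with Tcf21 P7 and 1 between Postn P7 and Tcf21 P30, and DESeq2 and limma-voom made the same numbers of calls. Rgs3, the most abundant of them, differed by 0.12 ± 0.61 between the P7 groups. Without Tcf21 P30 replicate 1, 1 of the 7 was higher in Postn P7 than in Tcf21 P7, 2 were lower in Tcf21 P30 than in Tcf21 P7, Rgs3 among them (-0.76 ± 0.17), and 2 were higher in Postn P7 than in Tcf21 P30. Of 5 tested relatives of the mitochondrial members, Ndufa4 and Cox4i1 (-0.43 ± 0.10, adjusted p = 0.036), both of the respiratory chain, were lower in Postn P7 than in Tcf21 P7, and Cox4i1 was lower in Tcf21 P30 (-0.36 ± 0.09). Between Postn P7 and Tcf21 P30 edgeR, DESeq2 and limma-voom called 0 of them, with 2 at an unadjusted p under 0.05. Without Tcf21 P30 replicate 1 the counts were 2 lower, 2 lower and 0 called, with Ndufa4 lower in Tcf21 P30 than in Tcf21 P7 as well (-0.41 ± 0.11). Of 12 other targets of hypoxia-inducible factor, the vasodilator peptide gene Adm was the 1 called between the P7 groups (-0.82 ± 0.17, adjusted p = 0.022). In Tcf21 P30 against Tcf21 P7, 3 were higher, Adm (1.36 ± 0.15), P4ha1 (0.56 ± 0.10) and Vegfa (0.50 ± 0.13), and 2 lower, Pfkfb3 (-0.74 ± 0.18) and Egln3 (-0.71 ± 0.15). Postn P7 had 1 of the 12 higher and 3 lower than Tcf21 P30. With Tcf21 P30 replicate 1 left out, the counts were 1 lower for Postn P7 against Tcf21 P7, 3 higher and 3 lower for Tcf21 P30 against Tcf21 P7, and 3 higher and 3 lower for Postn P7 against Tcf21 P30.

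Receptors and partners of vitronectin and CD146 were examined last, and only lower genes are named here. Of these 10 genes, 1 was higher and 1 lower in Postn P7 than in Tcf21 P7. In Tcf21 P30 against Tcf21 P7, 1 was higher and 2 lower. Postn P7 had 0 higher and 1 lower than Tcf21 P30. Without Tcf21 P30 replicate 1 the counts were, in the same order, 1 and 3, 2 and 2, and 1 and 1. The shares of all genes are those given above for the relatives. Lgals1, galectin 1, was lower in Postn P7 (-0.40 ± 0.10) and in Tcf21 P30 (-0.56 ± 0.09) than in Tcf21 P7. Itgb3, the beta subunit of the classical vitronectin receptor, was lower in Tcf21 P30 than in Tcf21 P7 (-1.86 ± 0.39, adjusted p = 0.018), and Itgb5, a subunit of another vitronectin receptor, was lower in Postn P7 than in Tcf21 P30 (-0.81 ± 0.16, adjusted p = 0.0078). Without Tcf21 P30 replicate 1 these stood at -0.39 ± 0.08 and -0.51 ± 0.08 for Lgals1, -1.95 ± 0.45 for Itgb3 and -0.91 ± 0.12 for Itgb5, all called.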

How the data were processed

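RNA from GFP-positive sorted heart cells was sequenced on Illumina instruments, per the labels' protocols. The authors deposited whole-number raw counts per gene symbol, 1 column per library and not normalized. Alignment used STAR and GRCm38, per the submitters' processing notes; the counting program, annotation release and strand setting are not given in the sources used here. Coordinates and exon lengths came from GENCODE M21 (GRCm38).

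Counts were filtered with filterByExpr, scaled by TMM and fitted for all 7 libraries, with a mean per group, in edgeR 4.0.16 under R 4.3.3 (robust quasi-likelihood F-test, Benjamini-Hochberg over 17636 genes, threshold 0.05). Standard errors were taken as |log2 change| over the root of F. DESeq2 1.42.0, limma-voom (limma 3.58.1), other scalings, no filter, only 2 groups, a replicate block, each library left out, both endothelial-rich libraries left out, and the Tcf21 P7 libraries summed were alternatives. The fit was tested on simulated data. For Postn P7 against Tcf21 P7 it called 5 of 49 simulated 1.5-fold changes, 21 of 46 2-fold changes and 69 of 97 4-fold changes. It also called 8 of 16991 unchanged genes. A gene that was not called is thus not shown to be unchanged.

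The members and gene lists were chosen with earlier results of these data known. All 10 members are named. From each other list the largest called changes, up to 4 per comparison, are named, otherwise the most expressed gene; a few genes are not reported here. The labels do not say whether libraries came from separate animals or litters, so p-values measure only the spread between these libraries, which may be technical. Replicates differed by more than sampling noise, and least in Tcf21 P7. Chi-squared per degree of freedom was 3.43 for the Tcf21 P7 pair, 18.4 for the Postn P7 pair and 9.90 to 38.1 within Tcf21 P30.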

Additional observations from a re-analysis of the deposited data

How the results depend on the processing

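Pdgfrb was called in both comparisons with Tcf21 P7 under every alternative except those that left 1 Tcf21 P7 library or summed the pair. Summing it gave 0 of the 10 genes called against Tcf21 P7 in Postn P7 (Pdgfrb adjusted p = 0.14) and in Tcf21 P30 (0.09), and 123 and 2463 of all genes, against 2118 and 5604 with all libraries.

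Without a low-count filter, members called were 9 for Postn P7 against Tcf21 P7 (3442 of 33172 genes, 10.4%), 6 for Tcf21 P30 against Tcf21 P7 (20% of all genes) and 7 for Postn P7 against Tcf21 P30 (15.1%). That fit had infinite prior degrees of freedom, so each gene's own spread was not used: the median quasi-dispersion of the 8 members other than Pdgfrb and Ndufa4l2 was 0.496, against 8.47. With only the 2 groups compared, 7 members were called in Postn P7 against Tcf21 P7 (16.9% of 16797 genes); Tcf21 P30 replicate 1 is not in that fit. DESeq2 called 1 member between Postn P7 and Tcf21 P30, Abcc9 (24.3% of all genes), and limma-voom 3 (24.8%).

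Leaving out 1 library at a time gave 0 to 5 members called in each comparison with Tcf21 P7 and 0 to 8 between Postn P7 and Tcf21 P30; all-gene calls were 111 to 3250 for Postn P7 against Tcf21 P7, 2418 to 6063 for Tcf21 P30 against Tcf21 P7 and 2810 to 5072 for Postn P7 against Tcf21 P30. The upper ends for members, and 3250, 6063 and 5072, came without Tcf21 P30 replicate 1. The lower ends 111 and 2418 came without Tcf21 P7 replicate 2, with 118 and 2442 without replicate 1, and 2810 without Postn P7 replicate 1. Between the P7 groups 507 and 1106 genes were called without Postn P7 replicate 2 and 1, and 1059 without Tcf21 P30 replicate 3. Without both endothelial-rich libraries 5, 5 and 8 members were called, and 3750 genes between the P7 groups.

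Signs changed only in Tcf21 P30 against Tcf21 P7. Leaving out 1 library gave -0.82 to 0.93 for Rgs5, -0.56 to 0.29 for Kcnj8, -0.58 to 0.23 for Abcc9, -0.94 to 0.61 for Higd1b and -0.12 to 0.97 for Vtn, the lowest without Tcf21 P30 replicate 1 and the highest without replicate 2 (for Kcnj8 also without replicate 3). Without both endothelial-rich libraries Rgs5 was -0.82, Kcnj8 -0.56, Higd1b -0.93 and Vtn -0.12. With limma-voom Rgs5 was -0.04, Kcnj8 -0.11 and Higd1b -0.31. Abcc9, at 0.00, was 0.01 with library size alone and 0.07 with the replicate block. The cause was not tested.

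The replicate block left the number of members called at 1, 1 and 0, and all-gene calls at 1556, 4553 and 3348; equally numbered libraries correlated in their deviations at 0.04 to 0.31, so the numbers were not taken to pair them. With library size alone the median of all genes between the P7 groups was 0.116, against 0.002, with 1741 higher and 472 lower genes, against 1149 and 969; upper-quartile factors gave 1187 and 647. Between Postn P7 and Tcf21 P30 library size alone gave 2802 higher and 1725 lower, against 2070 and 2206.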
